A study of Mus musculus with 6 samples.

Results

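The transcripts of 9 chemokines and of interleukin 6 (Il6) were examined in whole thoracic aortas of mice in which both TGF-β receptors had been deleted from smooth muscle cells (SMCs). The 10 genes were Ccl2, Ccl7, Ccl8 and Ccl11 of the CC family, Cxcl1, Cxcl10, Cxcl12 and Cxcl16 of the CXC family, Cx3cl1, and Il6. They were chosen by name, and each was found once among the 52636 genes of the deposited table by its Ensembl identifier. The mice were 12 weeks old. There were 4 WT aortas, from C57BL/6J mice given no drug, and 2 KO aortas, from mice termed Tgfbr1/2iSMCKO that had loxP-flanked receptor alleles (Tgfbr1f/f and Tgfbr2f/f) together with the Myh11-CreERT2 transgene and the fluorescent reporter mT/mG. The KO mice had been injected intraperitoneally with 2 mg of tamoxifen a day on 5 days, at an age of 11 weeks. Tamoxifen activates Cre in cells that express the SMC myosin gene Myh11, so that other cells of the wall keep their receptors, and the transgene lies on the Y chromosome, so that KO mice were male. The WT mice had none of the alleles and no tamoxifen. The effects of receptor loss, Cre, reporter and tamoxifen therefore cannot be told apart in this comparison. According to the paper, the mutant strains had been crossed to a B6 background over several generations, and the aortas studied came from males. Any remaining difference in strain background cannot be told apart from these effects either.

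Chemokines are small secreted proteins that bind receptors of the G protein-coupled class and draw leukocytes along a gradient. CC chemokines such as Ccl2 mainly recruit monocytes, Ccl11 recruits eosinophils, Cxcl1 recruits neutrophils and Cxcl10 recruits activated T cells, whereas Cxcl12 is made constitutively by stromal cells and retains progenitors and leukocytes in tissues. Cx3cl1 and Cxcl16 are made as membrane-bound proteins that are shed by Adam10 and Adam17. Il6 is a cytokine that signals through Il6st (gp130), Jak kinases and Stat3, and in the arterial wall it is known as a product of SMCs, fibroblasts and macrophages under inflammatory stimuli.

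A library held between 19650983 and 28860598 estimated counts. The mitochondrial share was 2.62% to 4.44% among WT libraries, 3.38% for KO-1 and 11.7% for KO-2. Whole-gene counts of the targeted genes overlapped between the groups (Tgfbr1 3858 to 5420 normalised counts in WT, 5780 in KO-1 and 4568 in KO-2) and, as they include exons outside the deleted part and cells without Cre, they do not check the labels. Columns of the deposited table carry codes rather than sample titles, and their match to WT and KO was inferred from those codes. In bulk tissue, a change in the number of cells of a type and a change in RNA per cell cannot be told apart.

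Of the 10 genes, 9 received an adjusted p-value from DESeq2 and Il6 did not, because its counts were too low. Of these 9, Ccl8, Cxcl12, Cxcl16 and Cx3cl1 passed an adjusted p of 0.05, all 4 higher in KO, and none passed it lower. Across all 17070 genes tested, 5.71% passed it higher and 4.69% lower. Only Ccl8 also exceeded a 2-fold change, the threshold at which genes are counted here as called, against 3.54% of tested genes called higher and 2.1% called lower. The median log2 fold change (KO over WT) of the 9 genes was 0.99, against 0.01 over all tested genes, and 8 of the 9 were positive. Both KO libraries lay above every WT library for 6 of the 9 (Ccl7, Ccl8, Ccl11, Cxcl12, Cxcl16 and Cx3cl1) and below every WT library for Cxcl1, where 17.9% of tested genes lay above and 16.4% below. Ccl2 and Cxcl10 overlapped. The adjusted p of Cx3cl1 stayed under 0.05 in edgeR and in each of the 6 fits that left out 1 library, which was the case for none of the other 3.

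**Figure D1:**
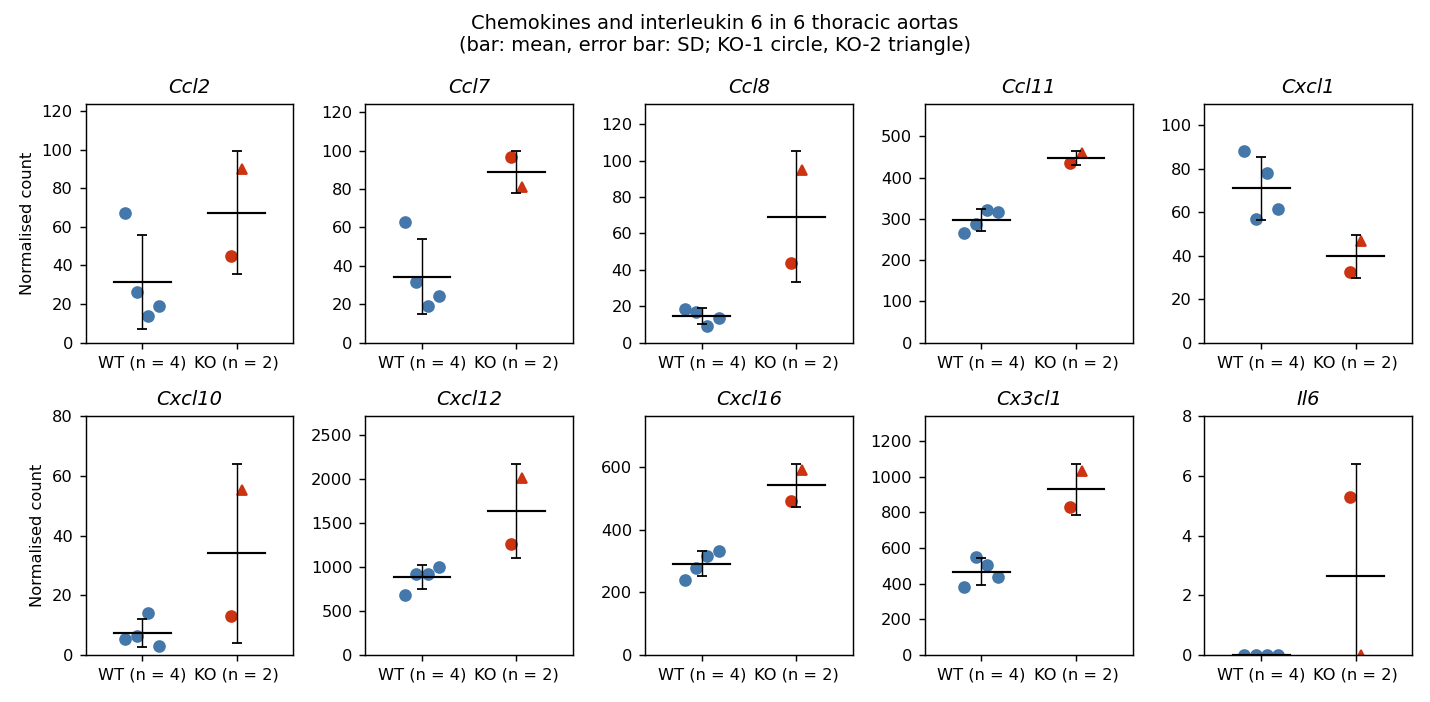
Normalised counts (counts divided by the DESeq2 size factor, linear axis from 0) of the 10 genes in 4 WT and 2 KO libraries, with mean and SD. Ccl11 shows tight groups that do not overlap, and Cx3cl1 and Cxcl16 show both KO values above all WT values. Ccl8, Cxcl10 and Cxcl12 show a KO-2 value well above KO-1, Cxcl1 is the gene with both KO values below WT, and Il6 is above 0 in KO-1 alone.

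The sequence before the transcription start was set beside these changes, because chemokine genes differ in whether they carry the motifs of inducible inflammatory factors there. Promoters of 250 bases before to 50 bases after the start were held in the RefSeq table (GRCm38.p6) for 6 of the 10 genes, and 4 are shown: Ccl8 (chr11:82114935-82115234, plus strand) and Cx3cl1 (chr8:94771930-94772229, plus strand), whose transcripts passed the test, and Cxcl1 (chr5:90890995-90891294, plus strand) and Cxcl10 (chr5:92348840-92349139, minus strand), whose transcripts did not. Capitals mark matches on either strand to the kappa B motif of NF-kB, to the AP-1 motif TGANTCA and to the core of the interferon-stimulated response element, GAAANNGAAA.
Ccl8: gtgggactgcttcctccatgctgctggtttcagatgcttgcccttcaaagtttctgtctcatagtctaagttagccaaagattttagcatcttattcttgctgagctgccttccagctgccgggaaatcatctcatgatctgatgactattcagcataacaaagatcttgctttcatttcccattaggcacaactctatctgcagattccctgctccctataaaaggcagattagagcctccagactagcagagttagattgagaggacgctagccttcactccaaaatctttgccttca
Cx3cl1: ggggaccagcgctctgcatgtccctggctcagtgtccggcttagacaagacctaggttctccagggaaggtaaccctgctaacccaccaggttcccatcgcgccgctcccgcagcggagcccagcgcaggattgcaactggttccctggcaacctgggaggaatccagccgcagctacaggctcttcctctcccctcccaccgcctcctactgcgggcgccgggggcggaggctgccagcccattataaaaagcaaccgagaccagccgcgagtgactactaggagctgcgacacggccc
Cxcl1: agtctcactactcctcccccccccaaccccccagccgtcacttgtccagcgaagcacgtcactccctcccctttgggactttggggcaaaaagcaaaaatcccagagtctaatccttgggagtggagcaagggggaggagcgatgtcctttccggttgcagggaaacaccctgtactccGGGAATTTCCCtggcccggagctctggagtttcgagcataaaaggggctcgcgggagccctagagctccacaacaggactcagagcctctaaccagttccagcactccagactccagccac
Cxcl10: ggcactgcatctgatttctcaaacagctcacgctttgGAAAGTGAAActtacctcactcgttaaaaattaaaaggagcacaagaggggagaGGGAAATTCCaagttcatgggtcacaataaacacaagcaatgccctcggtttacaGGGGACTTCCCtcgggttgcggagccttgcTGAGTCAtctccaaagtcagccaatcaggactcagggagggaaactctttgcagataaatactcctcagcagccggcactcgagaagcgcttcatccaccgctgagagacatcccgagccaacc

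A kappa B match was present at 1 place in Cxcl1 (first base at -71, counted from the start as 0), at 2 places in Cxcl10 (-159 and -104, the second as overlapping matches) and at 1 place in Il6 (-44). Among 32544 distinct promoters of that length, 8.49% held such a match. AP-1 matches were found in Cxcl10 (-74) and Il6 (-249), against 7.79% of promoters, and the interferon element core in Cxcl10 alone of the 6 (-213), against 3.45%. Ccl8, Cxcl12 and Cx3cl1, the 3 genes of the 6 whose transcripts passed the test, held none of these motifs within the window. Most promoters lack each motif, so this absence does not set the 3 genes apart. Cxcl10, which held each of the motifs, had a log2 fold change of 2.22, near the 2.24 of Ccl8, but did not pass. Il6 was not tested, and no promoter of Cxcl16 was held. Whether the motifs go with the changes was not tested. Cxcl12 held 5 GC boxes (GGGCGG) and 20 CpG dinucleotides and Cx3cl1 held 1 and 19, where 35.9% of promoters held a GC box and the median promoter held 7 CpG. Ccl8 held 2 CpG. A TATA box (TATAAA) was matched in Ccl8 at -32 and in Cx3cl1 at -6, and in 13.6% of promoters. For the Smad proteins that carry the TGF-β signal, the palindrome GTCTAGAC was in none of the 6 promoters (0.215% of all promoters), and the separate Smad-binding letters CAGAC were in Ccl8, Cxcl1 and Il6, against 49.5% of all promoters. The window of Cx3cl1 was set on a start downstream of the first base of the gene in GENCODE (94772009), which lies inside the window. Fewer than 250 bases before that base were therefore searched. These are matches of letters in 6 windows, and binding was not measured.

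The CC chemokines of the monocyte chemoattractant cluster were considered first. Ccl2, Ccl7, Ccl11, Ccl12 and Ccl8 follow each other in this order on chromosome 11 within 81.2 kb (GRCm38), and all are read from the plus strand. Ccl8 (MCP-2, chromosome 11, 82115185 to 82116799) had normalised counts of 18.7, 17.1, 8.99 and 13.6 across WT-1, WT-2, WT-3 and WT-4 (the order kept for each gene), 44.0 in KO-1 and 94.6 in KO-2. The KO libraries lay above all WT libraries, with KO-2 more than KO-1. The log2 fold change was 2.24 (standard error 0.60, DESeq2 adjusted p = 0.00371), the largest of the 9 genes tested. Its size depended on KO-2, without which the log2 fold change was 1.61 and the adjusted p 0.27.

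Ccl7 (MCP-3, chromosome 11, 82045712 to 82047525) had 62.6, 31.4, 19.0 and 24.0 normalised counts in WT and 96.4 and 81.1 in KO. The groups did not overlap, but WT-1 was more than all other WT libraries and the adjusted p was 0.0819 (log2 fold change 1.38, standard error 0.54). Without WT-1 the log2 fold change was 1.84 and the adjusted p 0.0034. Ccl2 (MCP-1, the main ligand of Ccr2 on monocytes, chromosome 11, 82035571 to 82037453) showed the same high WT-1 value. It had 67.0, 26.0, 14.0 and 18.8 normalised counts in WT and 44.8 and 89.7 in KO, so that WT-1 lay between the KO libraries. Ccl2 had a log2 fold change of 1.09 (standard error 0.66, 95% interval -0.21 to 2.40, adjusted p = 0.338). Without WT-1 it was 1.76 with an adjusted p of 0.0449, so 1 control library decided whether it passed.

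Ccl11 (eotaxin-1, chromosome 11, 82057823 to 82062955) was the most abundant of the 10 genes per kilobase of exon. It had 265.8, 286.5, 322.6 and 316.4 normalised counts in WT and 434.8 and 458.5 in KO. Spread within the groups was small and they did not overlap, yet the change was only 1.50-fold (log2 fold change 0.58, standard error 0.21) and its adjusted p was 0.0566. That value fell to 0.0296 when low counts were removed before the fit and to 0.0488 without WT-3. Ccl12, a neighbour in the cluster that is not among the 10 genes, had 12.0 to 27.5 normalised counts in WT and 76.6 and 40.6 in KO (log2 fold change 1.85, adjusted p = 0.0307). It did not pass without KO-1 (0.354), WT-2 (0.0975), WT-3 (0.0726) or WT-4 (0.0721). The 5 genes of the cluster thus had positive log2 fold changes from 0.58 to 2.24, of which those of Ccl8 and Ccl12 passed the test.

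The homeostatic chemokine Cxcl12 and the membrane-bound chemokines Cxcl16 and Cx3cl1 were considered next. Cxcl12 (SDF-1, ligand of Cxcr4 and of the scavenger Ackr3, chromosome 6, 117168535 to 117181367) had 684.3, 916.0, 921.7 and 997.2 normalised counts in WT, and 1259 in KO-1 and 2013 in KO-2. Both KO libraries lay above WT, and KO-2 more so. The log2 fold change was 0.89 (standard error 0.24, adjusted p = 0.00472). It was 0.53 without KO-2 (adjusted p = 0.245), and in edgeR, which gave 0.88, the adjusted p was 0.0566.

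Cxcl16 (chromosome 11, 70453983 to 70459984, minus strand), a transmembrane chemokine that also takes up oxidised lipoproteins, had 240.6, 279.3, 315.6 and 333.1 normalised counts in WT and 494.0 and 591.2 in KO. Every KO value was above every WT value. The log2 fold change was 0.89 (standard error 0.23, adjusted p = 0.00272), and 0.77 without KO-2 (adjusted p = 0.0778). Its 5′ end overlaps Zmynd15 on the opposite strand, which had 72 to 157 counts per library, and the use of strand in the counting was not stated.

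Cx3cl1 (fractalkine, which tethers monocytes carrying Cx3cr1 to endothelium and SMCs, chromosome 8, 94772009 to 94782427) had 382.2, 548.7, 504.3 and 434.4 normalised counts in WT and 827.8 and 1030.0 in KO. Both KO libraries lay above the highest WT library, and KO-2 lay above KO-1 by more than the whole WT range. The log2 fold change was 0.99 (standard error 0.22, 95% interval 0.55 to 1.43, adjusted p = 0.000345), just under 2-fold. Over the fits that left out 1 library the adjusted p was highest without KO-2, at 0.0332. Cx3cl1 had the smallest adjusted p of the 10 genes.

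The neutrophil chemokine Cxcl1 (KC, chromosome 5, 90891241 to 90893115) differed from the others in sign. It had 87.9, 56.6, 77.9 and 61.6 normalised counts in WT and 32.6 and 46.7 in KO. All KO values were below all WT values, but the difference did not pass the test (log2 fold change -0.85, standard error 0.43, 95% interval -1.69 to -0.01, adjusted p = 0.22). The smallest adjusted p among the alternative fits was 0.161, in edgeR. Cxcl2, another ligand of Cxcr2, was near the limit of detection with 2.5 to 9.1 normalised counts per library, and Cxcl5 had 6.8 to 19.0 (log2 fold change -0.47, adjusted p = 0.811).

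Cxcl10 (IP-10, chromosome 5, 92346638 to 92348889, minus strand), an interferon-inducible ligand of Cxcr3, had 5.5, 6.3, 14.0 and 3.1 normalised counts in WT, and 12.9 in KO-1 and 55.3 in KO-2. KO-1 was within the WT range and only KO-2 was high. The log2 fold change of 2.22 had a standard error of 0.91 and did not pass the test (adjusted p = 0.102). It passed without KO-1 (2.94, adjusted p = 0.0416) and without WT-3 (2.76, adjusted p = 0.0494). Cxcl10 lies wholly within Art3 on the opposite strand, which had 534 to 1226 counts per library against 3 to 45 for Cxcl10, and the reads of both genes cannot be told apart unless strand was used.

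Il6 (chromosome 5, 30013114 to 30019981) had 0 counts in all 4 WT libraries and in KO-2, and 7 counts in KO-1 (exact Poisson 95% interval 2.81 to 14.4, counting error only). A count of 0 in a library allows up to 3 counts (one-sided limit at 95%). A difference between the groups was not detectable at this depth, and no fold is given.

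**Figure D2:**
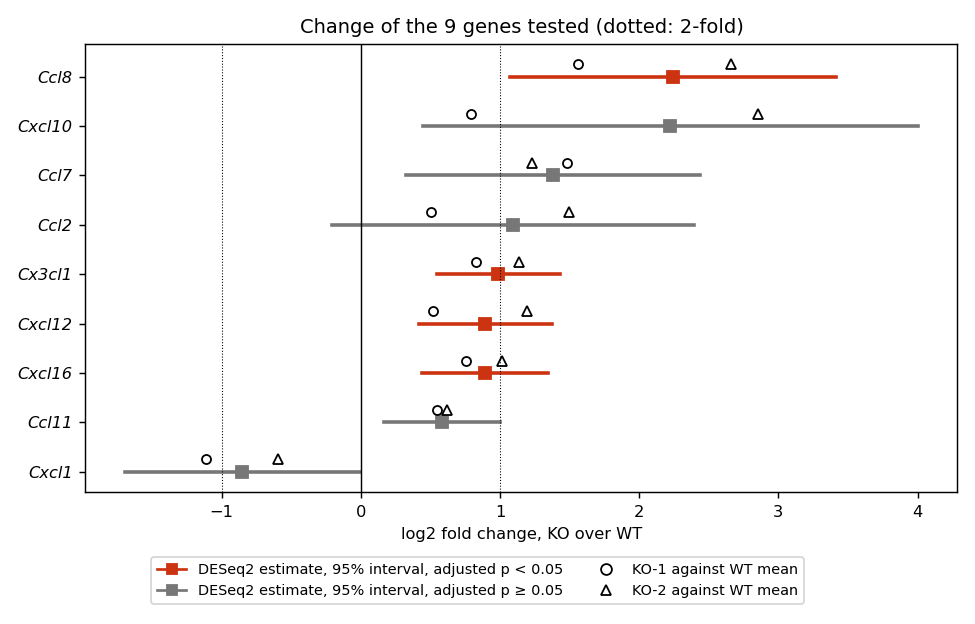
Log2 fold change (KO over WT) of the 9 genes tested, with the DESeq2 95% interval, and the log2 difference of each KO library from the WT mean (pseudocount 0.5). The intervals of Ccl8, Cx3cl1, Cxcl12 and Cxcl16 (red) belong to genes that passed the adjusted p, and the KO-2 value lies above the KO-1 value for every gene but Ccl7.

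The 2 KO aortas differed from each other in a direction shared by most of the genes. KO-2 exceeded KO-1 for 8 of the 9 genes tested (88.9%), against 48% of all tested genes, with Ccl7 the exception. The summed normalised count of the 10 genes was 1815 to 2202 in WT, 3251 in KO-1 and 4461 in KO-2. Without KO-2 the log2 fold change was 1.61 for Ccl8, 0.53 for Cxcl12, 0.77 for Cxcl16 and 0.83 for Cx3cl1. Without KO-1 these values were 2.70, 1.196, 1.02 and 1.14. Ccl7 went the other way, at 1.51 without KO-2 and 1.25 without KO-1. The median over all tested genes was 0.0160 without KO-2 and -0.0201 without KO-1. The sign of each of the 9 log2 fold changes was kept in all 13 alternative fits.

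Levels were also compared between genes as normalised counts per kilobase of annotated exon. In WT the order was Ccl11 (275.2 ± 24.5, SD, n = 4), Cx3cl1 (118.9 ± 18.8), Cxcl12 (107.6 ± 16.6), Cxcl16 (96.7 ± 13.6), Ccl7 (42.8 ± 24.4), Cxcl1 (37.9 ± 7.72), Ccl8 (28.5 ± 8.39), Ccl2 (27.6 ± 21.3), Cxcl10 (3.21 ± 2.09) and Il6 (0). The WT ranges of Cx3cl1, Cxcl12 and Cxcl16 overlapped from each gene to the next, as did those from Ccl7 through Ccl2, so the order within these blocks was not resolved. Ccl11 was above 78.8% of tested genes in WT and Cxcl10 above 7.68%. In KO, Ccl11 was again first at 412.8 and Cx3cl1 next at 236.4, while Ccl8 ranked 5 at 135.7 and Cxcl1 ranked 8 at 21.2.

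Many inflammatory messages carry AU-rich elements, which bind decay factors, in the 3′ untranslated region (UTR). Copies of the pentamer ATTTA were therefore counted in the longest annotated UTR of each gene (GENCODE M21). Cxcl1 held 7 copies (11.8 per kb, above 99.5% of 14011 tested genes with a UTR), Ccl11 held 5 (7.76 per kb) and Il6 held 10 (6.00 per kb). The 4 genes that passed the test held fewer per kb: Cxcl16 had 1.41, Cxcl12 had 0.77, Cx3cl1 had 0.53 and Ccl8 had none, where the median of tested genes was 1.3. The UTR of Ccl8 was only 165 bases long. Ccl7 (4.60), Ccl2 (3.64) and Cxcl10 (3.01) lay between. For Ccl11 and Ccl7, which did not pass, both KO libraries also lay above every WT library, so the density did not follow the direction of change. These are properties of the sequence, and message stability was not measured.

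Across the 6 libraries, likeness was measured as Pearson's r of log2(normalised count + 0.5) with 104 chemokine and pathway genes of sufficient level. The libraries form 2 groups, which r does not take apart, and it is given as a description. Ccl11 was most like Osmr (r = 0.998), Cxcl16 was most like Ccl11 (0.992), and Cxcl12 was most like Cxcl16 (0.960). Cx3cl1 was most like Ccr1 (0.963), Ccl2 like Ccl5 (0.968), Ccl7 like Ccl12 (0.952), Ccl8 like Ccl9 (0.953) and Cxcl10 like Ccl21a (0.994). Cxcl1 was most like Ccl27a (0.885), which also fell in KO. Its highest r with the other 8 tested genes of the 10 was -0.29, with Ccl2. As Cxcl1 was lower in KO and those genes higher, the group difference alone lowers this r. Immediate early genes were not among the candidates.

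The other chemokine ligands were described next, to place the 10 genes within their family. Of 28 further ligands, 24 had counts and 16 were tested, of which 6 passed the adjusted p higher and 1 lower (median log2 fold change 0.73). Ppbp (Cxcl7) and Pf4 (Cxcl4) are chemokines of platelet granules. Ppbp rose from 9.0 to 20.9 normalised counts in WT to 121.4 in KO-1 and 254.4 in KO-2 (log2 fold change 3.80, adjusted p = 1.71e-11), and it was the only one of the 7 to pass in edgeR and in each fit without 1 library. Pf4 rose from 256.6 to 349.3 in WT to 495.5 and 465.9 (log2 fold change 0.71, adjusted p = 0.0221). Ccl9 (log2 fold change 0.88), Ccl12 (1.85), Ccl21a (2.66) and Cxcl9 (3.30) also rose, and Ccl27a fell by 0.78 on the log2 scale.

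The changes of Cxcl9 and Ccl21a came from KO-2. Cxcl9, like Cxcl10 a ligand of Cxcr3, had at most 25 normalised counts in a WT library, 11.4 in KO-1 and 229.9 in KO-2, and its adjusted p without KO-2 was 0.982. Ccl21a, which guides T cells and dendritic cells in lymphatic tissue, had 5.2 to 27.0 in WT, 23.5 in KO-1 and 146.3 in KO-2 (adjusted p 0.769 without KO-2). Without KO-2, Ppbp and Ccl12 alone of the 7 passed, and without KO-1, Ppbp, Ccl9, Ccl21a and Cxcl9 did. Leaving out a WT library gave the highest adjusted p of 0.0673 for Ccl9 (without WT-2), 0.0681 for Ccl21a (WT-1), 0.208 for Cxcl9 (WT-1), 0.107 for Ccl27a (WT-2) and 0.0508 for Pf4 (WT-4). Ccl3 and Ccl22, which had 0 counts in every WT library and were not tested, had 5.3 and 2.3 normalised counts in KO-1 and 8.6 and 7.4 in KO-2.

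Chemokine receptors mark the cells that can respond. Of 21 receptors, 18 had counts and 14 were tested, of which Ccr1, Ccr2 and Ackr3 passed higher and none lower (median log2 fold change 1.50). Among the receptors above this median, Xcr1, Cxcr2, Ccr7 and Cxcr3 had mean WT levels of only 1.0 to 2.7 normalised counts. Ccr1, a receptor of Ccl7 on monocytes and neutrophils, had 18.7 to 31.0 normalised counts in WT, 115.3 in KO-1 and 205.3 in KO-2 (log2 fold change 2.72, standard error 0.44, adjusted p = 6.69e-08). Ackr3, the scavenger receptor of Cxcl12, had 944.6 to 1397 in WT, 2737 in KO-1 and 1975 in KO-2 (log2 fold change 1.03, standard error 0.22, adjusted p = 0.000193). Both were clear of WT in each KO library and passed without any 1 library and in edgeR. Ccr2, the receptor of Ccl2, had 40.4 to 120.8 in WT, 116.1 in KO-1 and 470.8 in KO-2 (log2 fold change 2.04, adjusted p = 0.00269). Without KO-2 the adjusted p of Ccr2 was 0.602.

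None of the other receptors passed the adjusted p in this DESeq2 fit. Cx3cr1, the receptor of Cx3cl1, had 144.6 to 231.8 normalised counts in WT, 349.8 in KO-1 and 97.1 in KO-2, on both sides of WT (log2 fold change 0.33, adjusted p = 0.724). Cxcr4 had 16.2 to 58.5 in WT and 56.1 and 78.7 in KO (log2 fold change 1.07, adjusted p = 0.282). Cxcr2, Cxcr3 and Cxcr6, the receptors of Cxcl1, Cxcl10 and Cxcl16, had at most 11.0 normalised counts in any WT library and between 8.3 and 18.4 in the KO libraries. Cxcr5, the receptor of Cxcl13 on B cells, had 0 counts in every WT library, 6.8 normalised counts in KO-1 and 20.9 in KO-2, and received no adjusted p in this fit and one of 0.0161 to 0.0642 in the 5 alternative fits that gave it. Ccr3, the receptor of Ccl11, had 0 counts throughout.

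**Figure D3:**
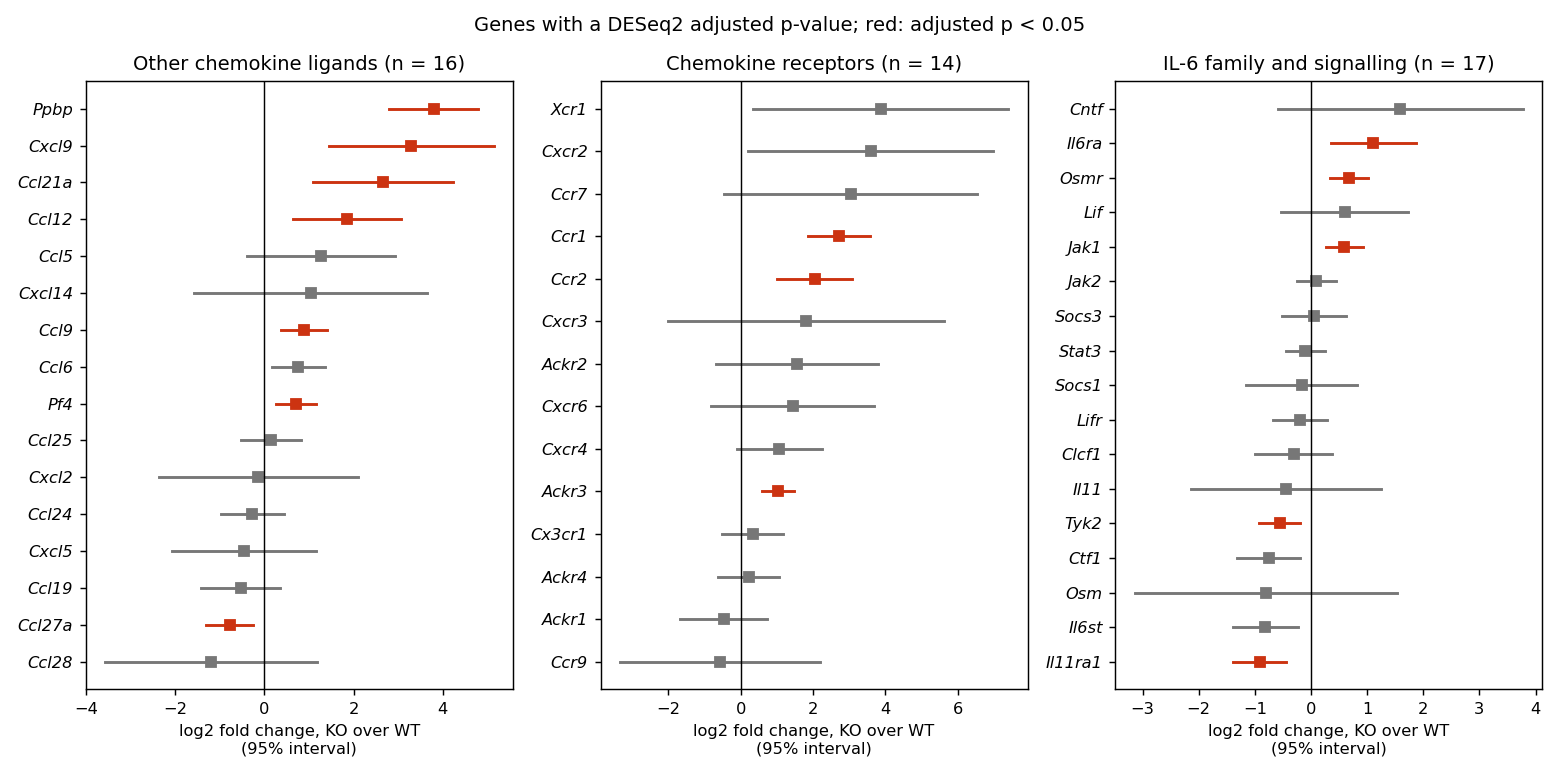
Log2 fold change (KO over WT) with the 95% interval for the tested genes of 3 lists: 16 other chemokine ligands, 14 chemokine receptors and 17 genes of the IL-6 family and its signalling. Genes in red passed an adjusted p of 0.05, which were 7, 3 and 5 genes, and the IL-6 list has them on both sides of 0.

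Some transcripts of the IL-6 family and its signalling chain passed the test, in both directions. Of 18 genes, 17 were tested, of which 3 passed higher and 2 lower (median log2 fold change -0.17). Osmr, the receptor of oncostatin M, rose from 809.5 to 985.6 normalised counts in WT to 1434 and 1496 (log2 fold change 0.67, adjusted p = 0.00288). Jak1 rose by 0.59 on the log2 scale (adjusted p = 0.00761). Osmr and Jak1 passed in edgeR and in each fit without 1 library. Il6ra, the receptor chain specific to Il6, rose by 1.11 (adjusted p = 0.0426), with 117.6 to 379.0 in WT and 514.5 and 709.2 in KO, and its adjusted p was 0.0588 without WT-1, 0.118 without WT-3, 0.0803 without KO-1 and 0.412 without KO-2. Il11ra1 fell by 0.92 (adjusted p = 0.00343, and 0.161 without KO-2) and Tyk2 fell by 0.56 (adjusted p = 0.0294). Tyk2 did not pass without WT-1, WT-2, WT-4 or KO-2, with adjusted p-values up to 0.216.

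The shared signal chain Il6st had 9898 to 14393 normalised counts in WT, 3960 in KO-1 and 9693 in KO-2. Both KO values were below WT, KO-2 only just (log2 fold change -0.81, adjusted p = 0.057). Stat3, the main mediator of Il6, had a log2 fold change of -0.11 (standard error 0.18, adjusted p = 0.798), and its target Socs3 had 0.05 (standard error 0.29, adjusted p = 0.942).

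Further lists cover processes known to act on chemokine messages and proteins. Of 26 tested genes of NF-kB signalling and its inducible targets, Icam1, an adhesion molecule for leukocytes, rose (log2 fold change 0.67, adjusted p = 0.00767, and 0.0935 without KO-2) and Ptgs2, the inducible cyclooxygenase, fell (-1.88, adjusted p = 4.43e-10), with a median of 0.06. Of 16 interferon-inducible genes, 4 passed higher and none lower (median 0.78): Rsad2 (3.56, adjusted p = 1.22e-09), Ifit1 (1.80), Oasl2 (1.53) and Irf7 (0.99). Rsad2 had 11.5 to 39.5 normalised counts in WT, 144.2 in KO-1 and 438.8 in KO-2, so that each KO library was high. Without KO-2, Rsad2 and Ifit1 still passed and Oasl2 (adjusted p = 0.138) and Irf7 (0.282) did not. Irf7 also did not pass without WT-3 (0.0935), WT-4 (0.106) or KO-1 (0.107).

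Of 18 immediate early genes, 5 fell and 1 rose (median -0.64). Fosb (-1.62, adjusted p = 9.48e-07), Nr4a1 (-1.55, adjusted p = 2.02e-08), Ier3 (-1.02) and Klf6 (-0.63) were the 4 with the smallest adjusted p among those that fell, and Myc rose (1.19, adjusted p = 0.0194). Ier3 did not pass without KO-1 (adjusted p = 0.106), nor Myc without WT-4 (0.0629) or KO-2 (0.273). Immediate early genes encode factors that respond within minutes to many stimuli, and Cxcl1 is itself known as an early response gene. Of 10 regulators of message decay, Zfp36l1 rose (0.62, adjusted p = 0.0354), and it did not pass in edgeR (0.0988) or without KO-2 (0.458), WT-1, WT-2, WT-3 or WT-4. Of 8 proteases and their regulators that shed or clip chemokines, Dpp4, which removes the first residues of Cxcl10, Cxcl12 and Ccl11, rose (1.33, adjusted p = 0.00532) and Rhbdf1 fell by 0.66 (adjusted p = 0.00748). Neither passed without KO-2 (0.299 and 0.106). The sheddases Adam10 and Adam17 had log2 fold changes of 0.41 (adjusted p = 0.15) and 0.07 (adjusted p = 0.888).

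Markers of the cell types of the wall were examined in the same libraries, and those of macrophages, endothelium and fibroblasts passed in part or in most members. Of 10 macrophage markers, 9 passed higher and none lower (median 0.78), and the summed level was 10111 to 12190 normalised counts in WT, 17267 in KO-1 and 19769 in KO-2. Mrc1, the mannose receptor of resident macrophages, had a log2 fold change of 1.41 (adjusted p = 2.15e-11). In edgeR 4 of the 9 passed, and in DESeq2 without 1 WT library 6 to 8 did. Without KO-2, 4 of the 9 still passed, and without KO-1, 5 did. Of 6 endothelial markers, 3 passed higher (Kdr 3.18, Cdh5 1.47 and Vwf 1.25), and the summed level was 10549 to 20363 in WT, 29692 in KO-1 and 28711 in KO-2. Of 6 fibroblast markers, Lum and Dpt (log2 fold change 0.57) passed higher, Dpt not without KO-1 (0.0545) or WT-2 (0.0504). Of 6 SMC markers none passed in DESeq2, with 4 at an unadjusted p under 0.05 (median -0.23).

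Neutrophil and lymphocyte markers had low levels. Of 3 neutrophil markers tested, S100a8 and Csf3r passed higher, and neither did without KO-1. The summed neutrophil level was 24.0 to 72.7 normalised counts in WT, 168.5 in KO-1 and 216.3 in KO-2, with Ly6g at 0 throughout. Of 7 lymphocyte markers none passed in DESeq2, with 2 at an unadjusted p under 0.05, and the summed level was 20.9 to 68.1 in WT, 88.8 in KO-1 and 329.4 in KO-2. Of 6 mast cell markers none passed in DESeq2 and 1 had an unadjusted p under 0.05. Their summed level was 545.0 to 1107 in WT, 656.3 in KO-1 and 1362 in KO-2.

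Markers of tissue that surrounds the aorta and of red cells also differed, and differently in each KO library. Of 5 mesothelial markers all passed higher, with sums of 206.5 to 408.4 in WT, 848.3 in KO-1 and 2208 in KO-2. Brown fat markers summed to 440.6 to 598.6 in WT, 660.9 in KO-1 and 10110 in KO-2, and white fat markers to 411.4 to 997.7, 849.1 and 6755. Red cell markers were highest in KO-2 (61684, against 859.3 to 5990 in WT and 11076 in KO-1), whereas cardiac markers were highest in KO-1 (19099, against 2990 to 3968 in WT and 3601 in KO-2). Of these lists 2 of 4 brown fat, 1 of 4 white fat, 4 of 4 red cell and 1 of 5 cardiac markers passed higher and none passed lower. Without KO-2, 1 of the 5 mesothelial, 1 of the 4 red cell and none of the fat markers passed in DESeq2. The part of any of these cell types in the chemokine values was not tested.

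**Figure D4:**
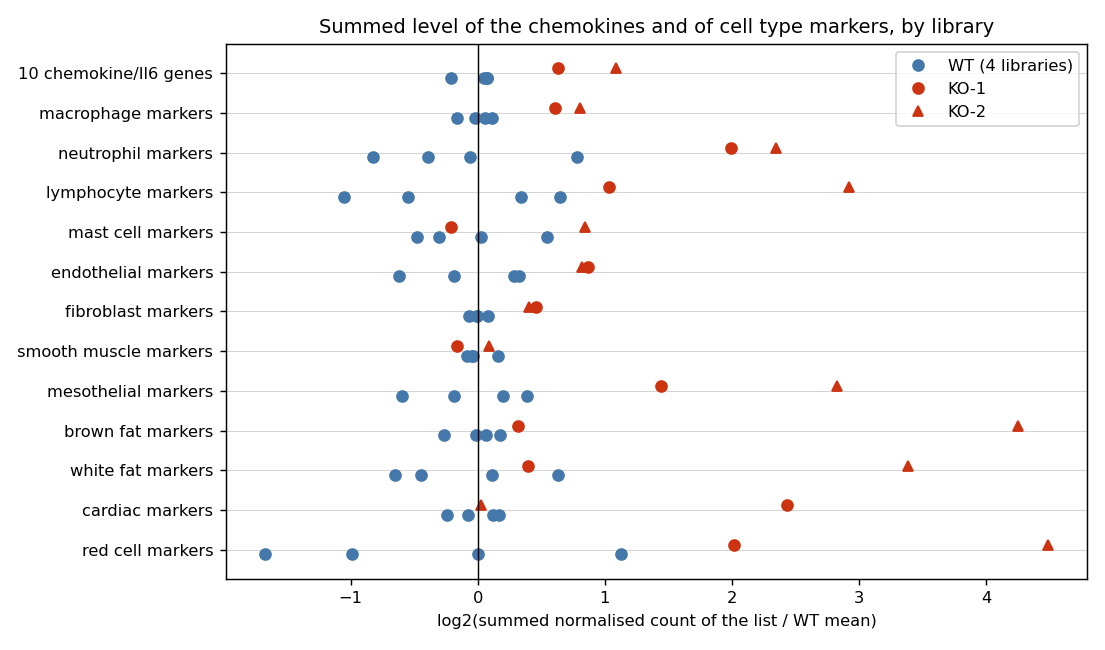
Summed normalised count of the 10 chemokine and Il6 genes and of 12 lists of cell type markers in each library, as log2 over the WT mean. The 10 genes stand at 0.63 in KO-1 and 1.09 in KO-2, and the macrophage markers at 0.61 and 0.81, while red cell (4.49), brown fat (4.25) and white fat (3.39) markers are highest in KO-2, with red cell markers at 2.01 in KO-1, and cardiac markers (2.43) are highest in KO-1.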

How the data were processed

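Total RNA of thoracic aortas, flushed with saline, was sequenced by the authors as 1 library per mouse (4 WT, 2 KO). Per the study's methods, reads were trimmed with Trim Galore, mapped to GRCm38 with HISAT2 and quantified with StringTie on GENCODE M15. The authors deposited estimated counts for each gene with no scaling by depth, which were whole numbers and needed no rounding. How coverage became whole counts, and whether strand was used, is not given in the sources used here, so overlapping genes on opposite strands can share reads. 

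Gene names, positions and exon lengths came from GENCODE M21 (GRCm38), which matched 52489 of 52636 identifiers. Of all genes, 27151 had 0 counts in each library, and 8415 with counts had no adjusted p. KO was compared with WT in DESeq2 1.42.0 (R 4.3.3, Wald test on the group alone, standard size factors, independent filtering at 0.05), following the study, and in edgeR 4.0.16 (quasi-likelihood) as an alternative. All adjusted p-values are Benjamini-Hochberg values over all genes tested. Genes with an adjusted p under 0.05 and a fold above 2 are called. The fits were also run on simulated counts in which each gene had the same spread in WT and KO. That run does not check the p-values for KO libraries as unlike each other as these. Other alternatives were scaling, filters on low counts (at least 10 in 2 libraries), a replicate term and leaving out each library, where a lone KO library was assumed to vary like WT.

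The 10 genes, the gene lists and the tests were chosen with earlier results of these data known, so that no count over a list is independent evidence. All 10 genes are described. From each pathway list up to 4 genes per direction with the smallest adjusted p under 0.05 were named, with all such genes for receptors and IL-6 signalling, except 2 genes that are not reported here and were left out of the lists. Further genes, among them all receptors and ligands given without a passing test, were chosen after their values were seen. Poisson intervals and the limit of 3 counts cover counting error only.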

Additional observations from a re-analysis of the deposited data

Results flagged for a closer look

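Over 30 groups of 4 WT values, which were the 10 genes and the summed levels of the other lists, 1 value stood apart from its group, where chance would flag about 1.5. The summed normalised count of the IL-6 family and signalling genes was 34016.4 in WT-4 and 30410 to 30960 in the other WT libraries (gap 0.847 of the range, above Dixon's 95% critical value for 4 samples). Il6st, the most abundant gene of the list, had 14393 normalised counts in WT-4 and at most 12559 in the others. None of the 10 genes was flagged in WT, and the KO group of 2 was too small for this test.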

How the results depend on the processing

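The 4 of 10 genes past the adjusted p were 3 in edgeR (Cxcl12 lost) and 1 to 6 over the fits without 1 library, the lowest without KO-2. The 1 called gene was 2 with total counts as scaling and 0 to 5 without 1 library. All called genes numbered 962, 633 in edgeR and 636 to 1284 without 1 library. Genes past the adjusted p in edgeR with and without the filter were 1 and 1 of 7 for other ligands, 2 and 1 of 5 for IL-6 signalling, 1 and 1 of 2 for proteases and 0 and 0 of 1 for decay regulators (0 also without independent filtering). The protease that passed was not the same gene: it was lower in KO with the filter and higher without it. Without 1 library the numbers were 2 to 5 for other ligands, 2 to 7 for receptors, 3 to 5 for IL-6 signalling, 0 to 2 for proteases, 1 to 3 for NF-kB genes, 0 to 1 for decay regulators and 2 to 4 for interferon genes. Il6 had an adjusted p in the fits without filtering alone, 0.855 in DESeq2 and 0.343 in edgeR. The cause of these differences was not tested.

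KO and WT libraries share the numbers 1 and 2, but the labels do not state a pairing, and the numbers are not taken as pairs. Deviations of same-numbered libraries from their group means had r = -0.087 and 0.014. With 2 KO libraries these deviations are opposite in KO-1 and KO-2, so these r values cannot show whether pairs exist. With the replicate number as a block, 561 genes were called, 1 of the 10 genes passed (Cxcl12, adjusted p = 0.0347; Cx3cl1 had 0.0788), and the numbers past were 1 for other ligands, 2 for receptors, 1 for IL-6 signalling, 0 for proteases, 1 for NF-kB genes, 0 for decay regulators and 2 for interferon genes. With 2 KO libraries, the genes of low count (Ccl2, Ccl7, Ccl8, Cxcl1, Cxcl10) had standard errors of 0.43 to 0.91, against 0.21 to 0.24 for Ccl11, Cxcl12, Cxcl16 and Cx3cl1. No log2 fold change of the 9 genes changed sign in any alternative.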
